A study of Caenorhabditis elegans with 82 samples.

Results

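Nuclear hormone receptors are transcription factors with a zinc-finger DNA-binding domain and a ligand-binding domain, and many of them switch target genes on or off when a lipid-like molecule such as a steroid or a fatty acid derivative binds. Caenorhabditis elegans has far more of these genes than insects or mammals do, and most of the additional genes descend from an ancestor related to HNF4, a vertebrate receptor of the liver and gut. In the worm, members of the family control moulting, fat metabolism, detoxification and the response to bacterial food. The family described here holds the 266 protein-coding genes whose symbol is nhr- followed by a number, of 46748 genes in the count table and 19641 protein-coding genes in the annotation. The receptors nhr-10, nhr-68 and nhr-114, which act in the response of propionate and methionine metabolism to vitamin B12, were left out of the family and are used once as a comparison.

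RNA was sequenced from whole worms of the wild-type strain N2, synchronized hermaphrodites grown at 20 °C on mNGM medium. The worms fed on lawns of Escherichia coli OP50, the standard laboratory food, of the Ochrobactrum isolates MYb71 or MYb65, which came from the natural microbiota of the worm, or of the condition labelled Mix. They were collected at 6 stages: L2 (collected after 6 h), L3 (after 24 h), L4 (after 48 h), Ad1 (after 72 h) and days 3 and 7 of adult life (Ad3 and Ad7), giving 24 groups of a bacterium and a stage. According to the study's methods, the worms had been kept on their bacterium for earlier generations. Larvae up to L4 were washed from the plates and pelleted, whereas adults were picked directly into the lysis reagent. Stage and harvest thus cannot be told apart between L4 and Ad1. The question was which genes the worms changed on the native bacteria compared with OP50, and how this depended on development and adult age. The study's methods give another strain name for the second isolate, and the labels' name MYb65 is used here.

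The 82 libraries held between 10513060 and 74552875 counts, with a median of 21133979. The OP50 L2 replicate 3 and OP50 L3 replicate 3 libraries went against their stage labels. Over log2 CPM (counts scaled to a library of 1e+06) of all genes, the first correlated with the other L2 libraries at r = 0.772 and with Ad3 at 0.994, and the second with L3 at 0.739 and with Ad7 at 0.993, whereas the other 80 libraries were closest to their own stage. Both were left out, so that 80 libraries in groups of 2 to 4 entered the tests, and the results with all 82 are given where they change a count. A pair of MYb65 libraries had a title that named the stage before the one in the time-point label and were placed by the time point. The labelled stages were checked on marker genes: the yolk genes vit-2 and vit-6 summed to between 21.2 and 109 CPM at L3 and to between 3590 and 58000 CPM at L4, and the germline genes pgl-1, glh-1, puf-5 and cbd-1 rose from between 34.4 and 57.9 CPM at L2 to between 1130 and 4400 CPM at L4. The libraries labelled L4 thus already held yolk and oocyte transcripts. In whole worms, fewer cells of a type and less RNA per cell cannot be told apart.

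The receptor genes were unevenly spread over the genome. Chromosome V carried 165 members, 62% of the family, against 25.1% of all protein-coding genes. Chromosome IV carried 33 members, chromosomes I and X 23 each, chromosome II 15 and chromosome III 7. In the gene order, many members lay next to each other, in runs of up to 9 genes, and 10 of the 12 runs of 4 or more were on chromosome V. Levels were compared per kb of exon. Among members that passed the count filter, the median of the mean level was 1.86 CPM per kb on chromosome V and 6.32 on the other chromosomes, against 6.35 over all genes tested.

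Most receptors were scarce. None of the 266 had a count of 0 in all libraries used, but 54 stayed under 1 CPM in every library, and 88 reached a mean of 10 CPM or more in at least 1 stage. A total of 229 members passed the filter and were tested among 18372 genes. The 37 others had a mean of at most 0.101 CPM over the stages. The highest level per kb belonged to nhr-49, a regulator of fatty acid desaturation and oxidation, with a mean of 60.1 CPM per kb, followed by nhr-31, needed for the excretory cell, with 30.1, nhr-46 with 28.0, nhr-86 with 27.3 and nhr-97 with 26.2. These 5 genes had different time courses. The mean level per kb of nhr-97 was 61.1 at L2 and 10.6 at Ad7, that of nhr-31 was 59.3 and 6.42, whereas nhr-86 was at 17 and 40.5.

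As a whole, the family was highest at L2 and L3, while L4 lay in the range of the adults. Its summed level lay between 2455 and 3253 CPM in the 12 L2 libraries, between 2185 and 2922 CPM in the 13 L3 libraries and between 1279 and 1929 CPM in the 13 L4 libraries. In adults it lay between 1383 and 2193 CPM at Ad1, between 1477 and 1627 CPM at Ad3 and between 1548 and 1662 CPM at Ad7, with 14 libraries at each stage. Every L2 library was above all L4 and adult libraries, and the L3 libraries overlapped them only through 1 library, at 2185 CPM, and 1 Ad1 library, at 2193 CPM. Of the 229 tested members, 158 (69.0%) had their highest mean level at L2 and 41 (17.9%) at L3. Over all genes tested, the shares were 27.9% and 18.2%. The lowest level was at Ad3 for 93 of the 229 members and at Ad7 for 71. Of all genes tested, 14.6% were lowest at Ad3 and 26.3% at Ad7. Only 21 members peaked in an adult stage. The shares at Ad1, Ad3 and Ad7 were 1.75%, 3.49% and 3.93% of the members, against 7.45%, 9.79% and 20.0% of all genes. The peak stage was the same on all 4 bacteria for 143 members. The median ratio of the highest to the lowest stage mean was 4.5 for the members and 7.13 for all genes.

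**Figure D1:**
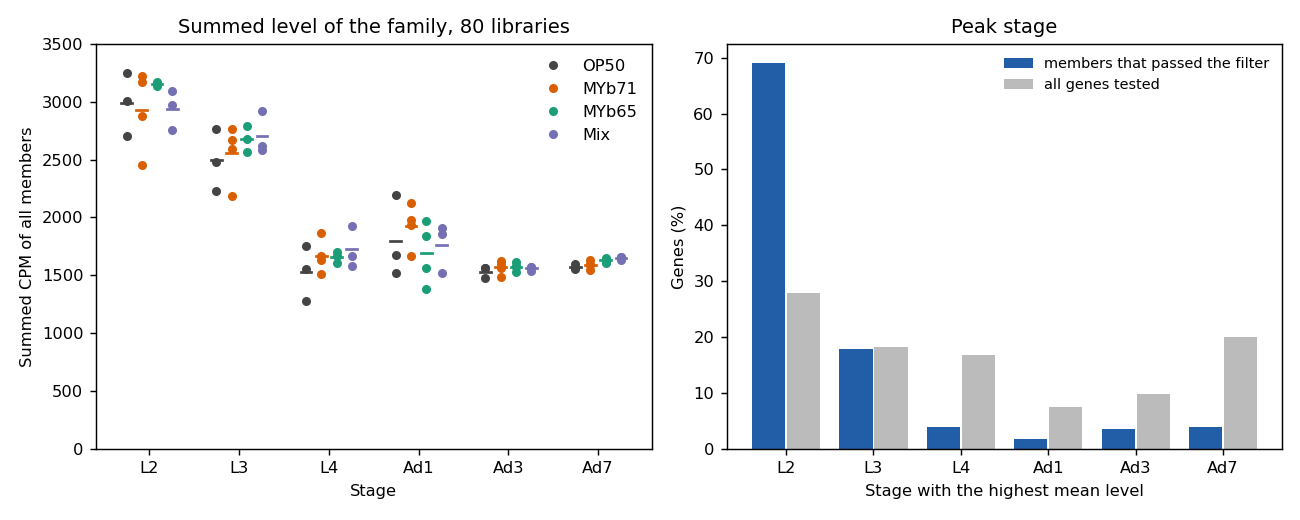
Left, summed CPM of the 266 members in each of 80 libraries (points) by stage, coloured by bacterium, with bars for group means. Right, percent of the 229 tested members (blue) and of all 18372 genes tested (grey) whose highest mean level fell at each stage. L2 libraries sit between 2455 and 3253 CPM and Ad3 libraries between 1477 and 1627 CPM, and 69.0% of members peaked at L2 against 27.9% of all genes.

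The fall came in steps. From L2 to L3, 115 members fell and 22 rose at an adjusted p under 0.05 (edgeR quasi-likelihood test, the 4 bacteria weighted equally), 59.8% of the members against 57% of all genes (24.4% higher and 32.6% lower). From L3 to L4, 168 fell and 11 rose, 78.2% against 81.7% of all genes (43.1% higher and 38.6% lower). The share called was therefore close to the background in both steps, but the directions were not: 73.4% of the members fell from L3 to L4, compared with 38.6% of all genes, and the median log2 change was -0.82 for the members and 0.07 for all genes. From L4 to Ad1 the movement was mixed, with 53 members higher and 43 lower (41.9%, against 64.1% of all genes, 32.2% higher and 31.9% lower). From Ad1 to Ad3, 138 fell and 15 rose (66.8%, against 56.2% of all genes, 18.9% higher and 37.2% lower), with a median log2 change of -0.57 for the members and -0.25 for all genes. The last step, from Ad3 to Ad7, had 31 members higher and 10 lower, 17.9% against 18% of all genes (8.57% higher and 9.45% lower).

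On and off chromosome V, the steps were as follows, and the difference between the chromosomes was not tested. From L3 to L4, 102 of 149 members on chromosome V and 66 of 80 on the other chromosomes fell, with median log2 changes of -0.78 and -0.85. From L2 to L3, 88 of 149 and 27 of 80 fell, with medians of -0.49 and -0.17. With the scaling by relative log expression (RLE) instead of TMM, the L3 to L4 counts were 168 lower and 11 higher, while from L4 to Ad1 44 members were higher and 49 lower, so that this step had no stable balance. The same scaling moved the median of all genes from Ad1 to Ad3 from -0.25 to -0.13 and that of the members from -0.57 to -0.44, so that the members stayed below all genes. From L3 to L4, 4 of 4 germline markers rose, while 4 of 4 intestine markers, 2 of 2 muscle markers (unc-54 and myo-3) and 2 of 3 neuron markers (egl-3, snb-1 and unc-104) fell. The epidermis markers went opposite ways: the mean level of dpy-7 was 150 CPM at L3 and 14.4 CPM at L4, that of col-19 1.57 and 3110 CPM. From Ad1 to Ad3, 3 of 4 germline markers rose, and 3 of 4 intestine markers and 2 of 2 muscle markers fell. In this step the mean level of egl-3 went from 100 to 59.4 CPM, unc-104 from 25.8 to 17.2 CPM and snb-1 from 191 to 214 CPM. The epidermis markers dpy-7 and col-19 went from 31.8 to 9.86 CPM and from 363 to 136 CPM. The part of these tissues in the fall of the receptors was not tested. Without replicate 3, the Ad1 to Ad3 step held 89 calls in place of 153.

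The genes with the largest changes in these steps, among members with a mean of at least 2 on the log2 CPM scale, traced several time courses. The SF-1/LRH-1 homologue nhr-25, which acts in epidermis and moulting, had a lowest, median and highest level of 22.3, 43.2 and 73.5 CPM in the 13 L3 libraries and of 0.408, 2.01 and 4.46 CPM in the 13 L4 libraries. The groups did not overlap, and the fall was -4.45 ± 0.30 on the log2 scale (the value after ± is the standard error throughout) with an adjusted p of 1.22e-20. From L4 to Ad1, nhr-25 rose by 2.63 ± 0.28 to a median of 14.8 CPM, with a range from 4.42 to 25.4 CPM.

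Other members fell with it from L3 to L4. The Rev-Erb homologue nhr-85 went from a median of 16.8 CPM (4.4 to 26.9) to 1.78 CPM (0.144 to 4.22), a log2 change of -2.81 ± 0.28. The GCNF homologue nhr-91 went from 35.4 CPM (16.1 to 51.4) to 4.22 CPM (2.5 to 10.7), a log2 change of -2.73 ± 0.24. The TR2/TR4 homologue nhr-41 first rose by 1.48 ± 0.24 from L2 to L3 and then changed by -1.97 ± 0.23 to L4. The adjusted p was 4.34e-14 for nhr-85, 1.11e-15 for nhr-91 and 2.06e-11 for nhr-41 in the L3 to L4 step, and none of these calls was lost under any alternative.

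A few members ran against the family. The gene nhr-2, known for its transcription in early embryos, was at a median of 0.131 CPM at L3 (0.047 to 0.237), of 7.26 CPM at L4 (0.975 to 10.6), of 24.5 CPM at Ad1 (12 to 37.1) and of 36 CPM at Ad3 (29 to 40.6). The L3, L4 and Ad1 libraries did not overlap, and the log2 changes were 5.38 ± 0.29 from L3 to L4 and 2.11 ± 0.21 from L4 to Ad1, with adjusted p values of 4.63e-25 and 5.78e-13. The embryo markers pes-10 and end-1 summed to at most 1.62 CPM at L4 and to between 5.55 and 16.4 CPM at Ad1, and their part in the level of nhr-2 was not tested. The fat-regulating receptor nhr-76 rose from a median of 3.04 CPM at L3 (2.47 to 4.93) to 15.1 CPM at L4 (10.9 to 27.1), fell to 7.61 CPM at Ad1 (5.14 to 11.3) and rose again to 24 CPM at Ad3 (14.2 to 32.5). Its 3 log2 changes were 2.47 ± 0.14, -1.20 ± 0.13 and 1.64 ± 0.13, all past the threshold. A steady climb was seen for nhr-66, an NHR-49 partner in lipid metabolism, from a median of 31.1 CPM at L2 (23.3 to 38.1) to 124 CPM at Ad3 (117 to 149), and for nhr-181, from 0.528 CPM at L2 (0.266 to 1.18) to 12.6 CPM at Ad7 (10.7 to 14.2).

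**Figure D2:**
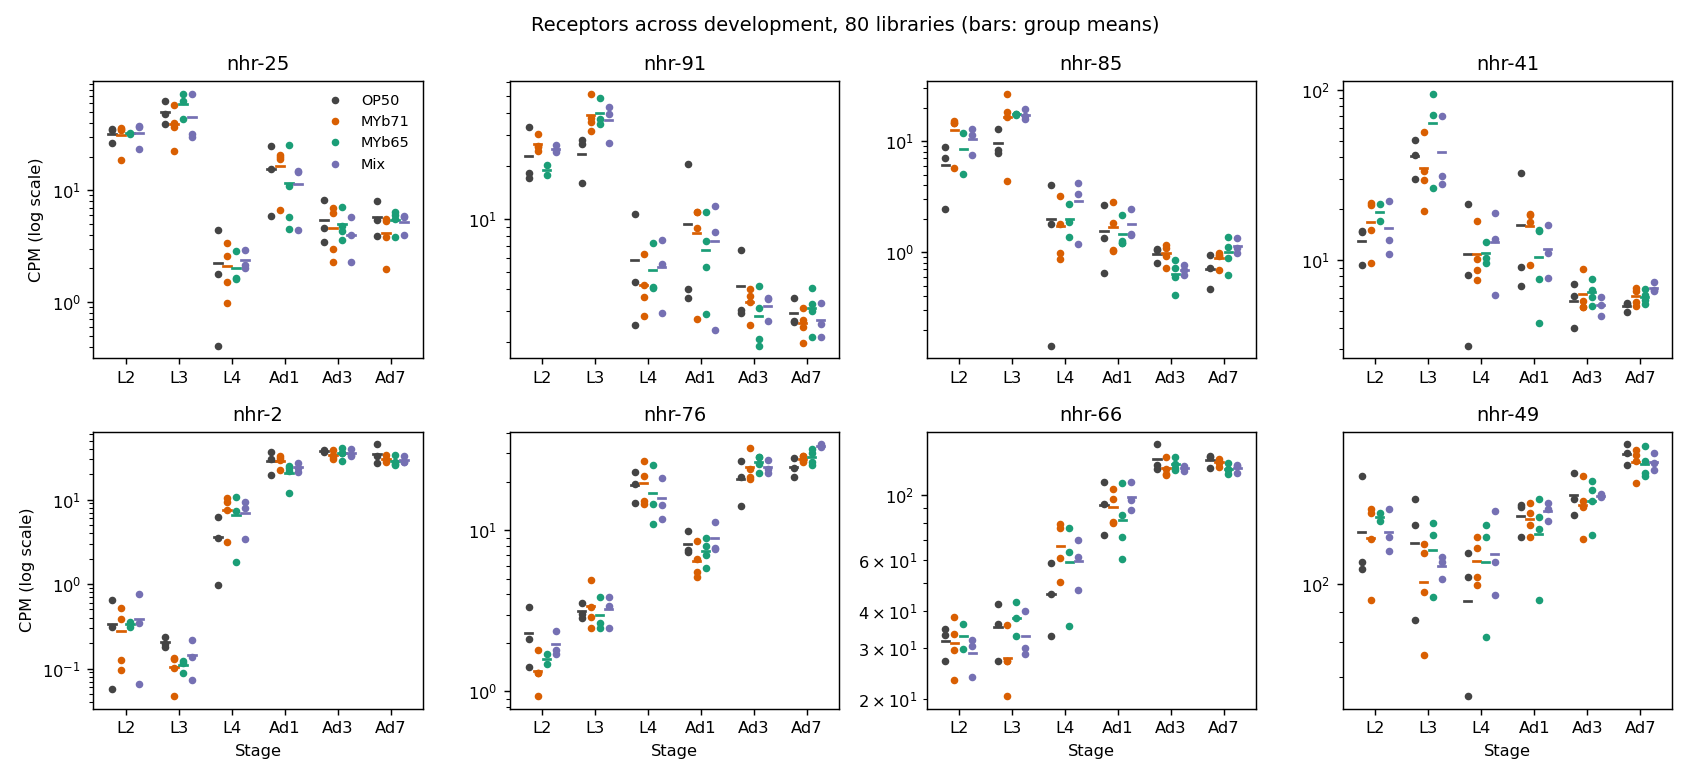
CPM (log scale) of 8 receptors in 80 libraries (points) by stage, coloured by bacterium, with bars for group means. The upper row holds receptors that fell from L3 to L4, such as nhr-25 from a median of 43.2 to 2.01 CPM, and the lower row receptors that rose into adult life or, for nhr-49, stayed within 64.9 to 172 CPM throughout.

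In the first step, the genes that fell most were nhr-7, nhr-44, nhr-2 and nhr-47. Among them, nhr-7 went from a median of 44.6 CPM at L2 (24.3 to 63.6) to 9.49 CPM at L3 (5.45 to 32), a log2 change of -1.82 ± 0.20 (adjusted p = 7.42e-12), and nhr-44 from 15.1 CPM (12.6 to 18.4) to 5.68 CPM (4.8 to 7.28), a change of -1.38 ± 0.18. The change of nhr-2, -1.32 ± 0.34, concerned levels under 1 CPM. Beside nhr-41, the genes that rose most from L2 to L3 were nhr-181 (2.16 ± 0.29), nhr-121 (1.05 ± 0.13) and nhr-106 (0.97 ± 0.13). From L4 to Ad1, nhr-61 rose by 1.10 ± 0.11 and nhr-17 by 0.91 ± 0.13, whereas the excretory cell receptor nhr-31 changed by -0.79 ± 0.18, nhr-8 by -0.68 ± 0.15 and nhr-121 by -0.67 ± 0.12.

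Within adult life, the named genes changed as follows. From Ad1 to Ad3, nhr-99 changed by -1.52 ± 0.26, nhr-25 by -1.52 ± 0.26, nhr-19 by -1.47 ± 0.17 and nhr-120 by -1.38 ± 0.13. The genes that rose, beside nhr-76, were nhr-71 (0.65 ± 0.11), nhr-11 (0.49 ± 0.14) and nhr-66 (0.48 ± 0.10). From Ad3 to Ad7, nhr-11 rose from a median of 4.66 CPM (3.28 to 6.6) to 11.7 CPM (8.61 to 13.8). The groups did not overlap, and the log2 change was 1.34 ± 0.14 (adjusted p = 9.36e-11). The receptor nhr-62, which is required for the longevity of food-restricted worms, rose from 4.13 CPM (3.08 to 5.4) to 7.62 CPM (6.2 to 9.87), a change of 0.96 ± 0.11. On OP50 alone, with 3 libraries a group, no member was called from Ad3 to Ad7 (DESeq2, over all bacteria, called 40), and without replicate 2 the count was 17.

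The receptors conserved in insects and mammals were examined as a list of 9 (nhr-6, nhr-8, nhr-23, nhr-25, nhr-41, nhr-48, nhr-67, nhr-85 and nhr-91). From L2 to L3, 4 rose and 1 fell, beside 24.4% of all genes that rose and 32.6% that fell in this step, and the difference from the family was not tested. From L3 to L4, the median log2 change was -1.97, beside -0.82 for the tested members and 0.07 for all genes. In this step 8 of 9 fell and none rose, beside 73.4% of the tested members and 38.6% of all genes that fell. The exception was nhr-23, the ROR homologue that drives moulting gene expression, with a median of 52.4 CPM at L3 (14.2 to 86.8) and of 54.7 CPM at L4 (22.8 to 75.4). From L4 to Ad1, 4 rose, with nhr-67, a tailless homologue of the nervous system and gonad, at 1.86 on the log2 scale, and 1 fell. In this step 23.1% of the tested members and 32.2% of all genes rose, and 18.8% and 31.9% fell. From Ad1 to Ad3, 6 fell, a step in which 60.3% of the tested members and 37.2% of all genes fell. The difference of the list from the family was not tested in these steps either. The moulting genes mlt-10, nas-37, noah-1, noah-2 and bli-1 were listed beside them: 2 of 5 rose from L2 to L3, and 4 fell and 1 rose from L3 to L4. The exception was the cuticle collagen bli-1, with mean levels of 0.627 CPM at L3 and 35.2 CPM at L4.

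Receptors of fat metabolism did not share 1 course. Of nhr-13, nhr-49, nhr-62, nhr-66, nhr-76 and nhr-80, 3 rose and 1 fell from L2 to L3, 2 rose and 1 fell from L3 to L4, 3 rose and 2 fell from L4 to Ad1, 3 rose and 2 fell from Ad1 to Ad3, and 2 rose from Ad3 to Ad7. Over all genes, the shares that rose in these steps were 24.4%, 43.1%, 32.2%, 18.9% and 8.57%. The shares that fell were 32.6%, 38.6%, 31.9%, 37.2% and 9.45%, and the difference of the 6 genes from all genes was not tested. The desaturase regulator nhr-80 peaked at L3, with a mean of 18.2 CPM, and was at 6.81 CPM at Ad3, whereas nhr-13 went from 9.1 CPM at L2 to 20.0 CPM at Ad3. Members tied to stress and xenobiotics (nhr-8, nhr-14, nhr-45, nhr-57, nhr-86 and nhr-176) fell in 5 of 6 cases from Ad1 to Ad3, a step in which 60.3% of the tested members and 37.2% of all genes fell. The gene that rose was nhr-86, a receptor that senses a bacterial metabolite and controls intestinal defence genes, from a median of 39.2 CPM (32.7 to 45.9) to 51.2 CPM (40.9 to 62.9). The iron- and immunity-related nhr-14 peaked at L3 with a mean of 46.6 CPM and was at 12.3 CPM at Ad3.

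Nuclear receptors with other names and coregulators were counted in the same way. Of daf-12, the dafachronic acid receptor of the dauer decision, fax-1, odr-7, sex-1 and unc-55, 4 fell and 1 rose from L3 to L4. The mean level of daf-12 was 53.2 CPM at L2, 141 CPM at L3 and 22.5 CPM at L4. The gene that rose was sex-1, which reads the X chromosome dose, and it rose again from L4 to Ad1, by 2.07 on the log2 scale, to 43 CPM. Of the coregulators mdt-15, a Mediator subunit that binds NHR-49, cbp-1, gei-8 and din-1, 2 of 4 fell from L3 to L4 and 3 rose from L4 to Ad1. Over all genes, 38.6% fell in the first of these steps and 32.2% rose in the second. None of the 4 was called in the adult steps. The mean level of din-1 was 117 CPM at L2, 222 CPM at L3 and 76 CPM at L4. The mean level of mdt-15 was 218 CPM at L2 and 191 CPM at Ad3.

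On the native bacteria, a small set of receptors differed from OP50. Across stages, with the stage as a term of the model, 7 members were higher and 11 lower on MYb71, which is 7.86% of 229, against 4.69% of all genes (1.76% higher and 2.93% lower). On MYb65, 4 were higher and 7 lower, 4.8% against 3.52% of all genes (1.8% higher and 1.71% lower). On Mix, 4 were higher and 9 lower, 5.68% against 2.92% of all genes (1.13% higher and 1.79% lower). The median log2 change of the members was 0.002 on MYb71, 0.037 on MYb65 and 0.025 on Mix. These comparisons share the OP50 libraries. In all, 21 members were called on at least 1 lawn, 11 lower and 10 higher, and all 21 had the same sign on the 3 lawns. With the pair of mislabelled OP50 libraries included, 31, 24 and 26 members were called on MYb71, MYb65 and Mix, and most of them were higher (17, 15 and 16), so that the balance of directions depended on these libraries. Without replicate 2 the counts fell to 8 on MYb71 and 5 on MYb65, without replicate 1 to 7 on Mix, and without replicate 3 the count on MYb65 was 21.

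Of the 21 genes, 8 were called on all 3 lawns. Of these, nhr-11, nhr-53, nhr-101, nhr-137, nhr-156, nhr-202 and nhr-203 were lower and nhr-8 was higher. As the 3 comparisons share the OP50 libraries, their calls and signs are not independent. The shares of all genes called on at least 1 lawn and on all 3 lawns were not counted. Further genes were lower on MYb71 and Mix (nhr-98 and nhr-201) or on MYb71 alone (nhr-104 and nhr-145). The genes that were higher were called on a pair of lawns (nhr-19 and nhr-225 on MYb71 and Mix, nhr-184 on MYb71 and MYb65) or on 1 lawn (nhr-21, nhr-55 and nhr-79 on MYb71, nhr-155 and nhr-227 on MYb65, nhr-157 on Mix). Of the 21, 15 lie on chromosome V, as do 149 of the 229 tested members, and 19 had their peak at L2 or L3, as did 199 of the 229, so that both shares were near those of the family.

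**Figure D3:**
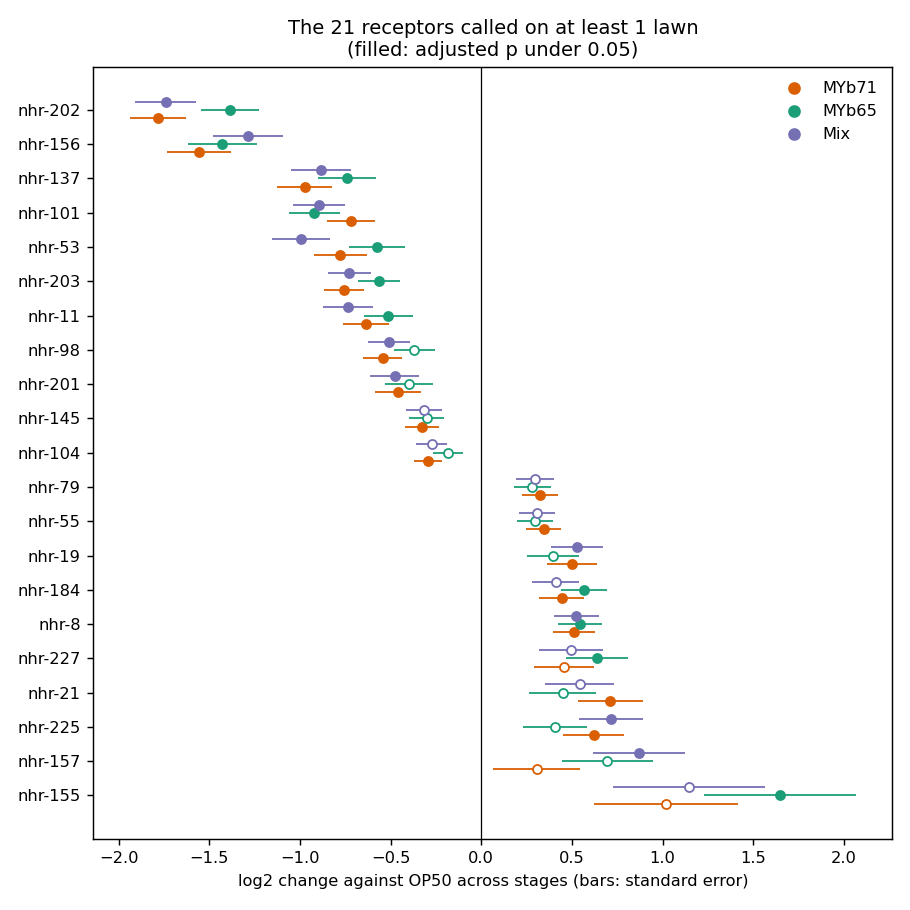
The log2 change against OP50 across stages (points, bars for the standard error) of the 21 members called on at least 1 lawn, for MYb71, MYb65 and Mix, with filled points for an adjusted p under 0.05. The changes run from -1.78 for nhr-202 on MYb71 to 1.65 for nhr-155 on MYb65, and each gene keeps its sign on the 3 lawns.

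The largest decrease was that of nhr-202. At L3, nhr-202 had 11.7, 13.3 and 9.78 CPM in the OP50 libraries. It had 1.56, 1.78, 1.94 and 1.84 CPM on MYb71, 3.13, 3.63 and 2.02 CPM on MYb65 and 2.54, 2.21 and 1.94 CPM on Mix. The OP50 libraries were all above those of the other lawns, without overlap. At L2, the OP50 values were 5.9, 8.96 and 8.18 CPM, and the other 9 libraries lay between 1.74 and 3.78 CPM, again without overlap. In adults the OP50 libraries diverged, with 5.09, 9.21 and 2.64 CPM at Ad1, 1.79, 4.73 and 0.595 CPM at Ad3 and 1.76, 5.89 and 3.45 CPM at Ad7. The lowest OP50 library at Ad3, replicate 3 with 0.595 CPM, was below all 11 libraries of the other lawns. Across stages, the log2 change was -1.78 ± 0.15 on MYb71 (adjusted p = 3.52e-15), -1.39 ± 0.16 on MYb65 (4.62e-10) and -1.74 ± 0.17 on Mix (5.93e-13), and the call held under all 10 alternatives on each lawn, those that left out a replicate number included.

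The gene nhr-156 came next. Its levels on OP50 were 6.14, 7.02 and 4.54 CPM at L2, 10.4, 6.26 and 2.81 CPM at L3 and 8.04, 8.92 and 1.3 CPM at L4. On the other lawns, nhr-156 lay between 2.17 and 3.55 CPM at L2, between 1.47 and 2.43 CPM at L3 and between 0.778 and 1.59 CPM at L4. The OP50 libraries were thus above all others at L2 and L3, but OP50 replicate 3 was inside the range of the other lawns at L4. The log2 change across stages was -1.56 ± 0.18 on MYb71, -1.43 ± 0.19 on MYb65 and -1.29 ± 0.19 on Mix, with adjusted p values of 2.1e-10, 3.64e-08 and 1.15e-06, and the calls held under all 10 alternatives. The gene lies on chromosome V at 3906106 to 3908452 (WBcel235) and has no neighbour of the family.

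By contrast, nhr-202 lies in a run of 5 receptor genes on chromosome V, between 451451 and 467509, in the order nhr-123, nhr-98, nhr-203, nhr-202 and nhr-201, all on the forward strand. All but nhr-123 were called lower on MYb71 and Mix. At L3, nhr-203 had 12.5, 13.2 and 8.42 CPM on OP50 and between 3.39 and 6.84 CPM on the other lawns, and at L2 it had 9.23, 11.1 and 8.23 CPM on OP50 and between 4.74 and 7.91 CPM elsewhere. The groups did not overlap at either stage. The log2 change of nhr-203 across stages was -0.76 ± 0.11 on MYb71, -0.56 ± 0.12 on MYb65 and -0.73 ± 0.12 on Mix.

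The other called genes of the run moved less. The log2 change of nhr-98 was -0.54 ± 0.11, -0.37 and -0.51 ± 0.12 on the 3 lawns, and that of nhr-201 was -0.46 ± 0.13, -0.40 and -0.48 ± 0.14, and on MYb65 neither passed (adjusted p = 0.0511 and 0.0772). The upstream gene nhr-123 had log2 changes of 0.32, 0.38 and 0.20, with adjusted p values of 0.349, 0.275 and 0.752. The exons of nhr-201 and nhr-202 share 36 bases on the same strand, 2.64% of the exon length of nhr-202, so that reads from this stretch cannot be assigned to either gene. In the next run on the chromosome, of 6 genes from nhr-99 to nhr-106, nhr-55 was higher on MYb71 (0.34 ± 0.09) and no other gene was called.

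**Figure D4:**
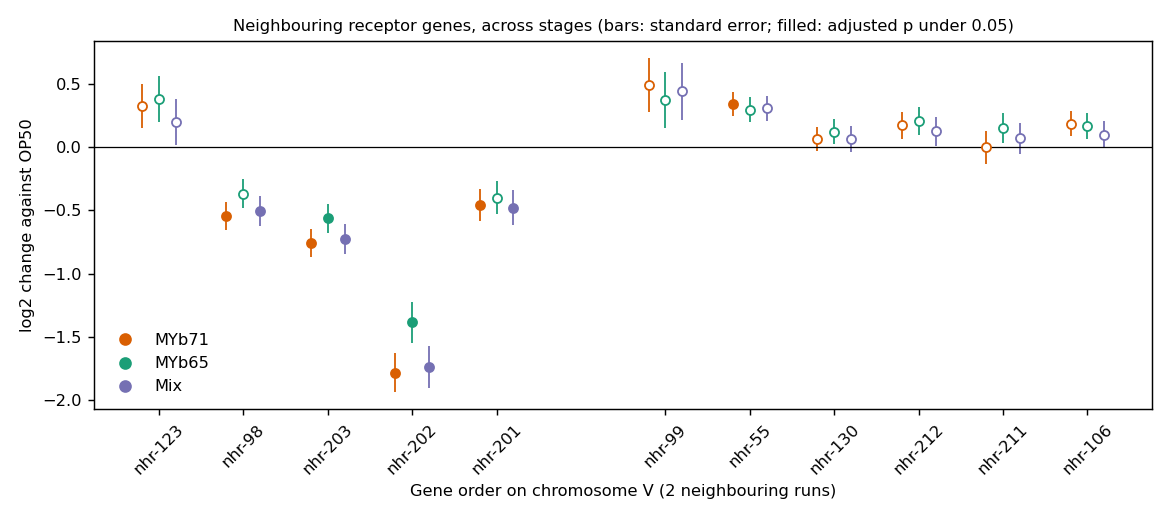
The log2 change against OP50 across stages (points, bars for the standard error) of the receptor genes of 2 neighbouring runs on chromosome V, in gene order, for MYb71, MYb65 and Mix, with filled points for an adjusted p under 0.05. In the first run nhr-98, nhr-203, nhr-202 and nhr-201 lie below 0 and nhr-123 above it, and the second run, from nhr-99 to nhr-106, lies near or above 0.

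The gene nhr-53 was lower, with log2 changes of -0.78 ± 0.15, -0.57 ± 0.15 and -0.99 ± 0.16, while its neighbour nhr-199 was at 0.33, 0.68 and 0.33 and was not called. The neighbour of nhr-137 on chromosome X, nhr-173, was at 0.12, 0.15 and 0.29 and was not called either, whereas nhr-137 changed by -0.98 ± 0.15, -0.74 ± 0.16 and -0.88 ± 0.16. In a run of 5 genes on chromosome V between 2281759 and 2296977, nhr-225 was higher on MYb71 (0.62 ± 0.17) and Mix (0.71 ± 0.18) and its neighbour nhr-227 on MYb65 (0.64 ± 0.17), and nhr-228, nhr-115 and nhr-226 were not called. In the largest run, of 9 genes from nhr-185 to nhr-124, only nhr-157 was called, on Mix.

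On all 3 lawns, nhr-101 had lower values at L2 and L3 than on OP50. At L2, nhr-101 had 28.9, 35.5 and 22.5 CPM on OP50, 9.57, 11.8, 8.65 and 11.6 CPM on MYb71, 12.3 and 16.6 CPM on MYb65 and 12.5, 9.18 and 11 CPM on Mix. At L3 the OP50 libraries were at 20.8, 22.5 and 17.1 CPM and the others between 4.57 and 14.2 CPM. The groups did not overlap at L2 or L3. At Ad7, the other lawns lay between 2.52 and 3.84 CPM. The OP50 library at 5.64 CPM was above this range, and those at 3.7 and 2.98 CPM were inside it. The mean of nhr-101 was below OP50 at all 6 stages on each lawn. Across stages, nhr-101 changed by -0.72 ± 0.13, -0.92 ± 0.14 and -0.89 ± 0.14 on MYb71, MYb65 and Mix, and all 3 calls held under all 10 alternatives. The gene lies on the forward strand of chromosome V at 11570476 to 11572549 and shares 887 of its 1398 exon bases (63.4%) with the opposite-strand gene H12C20.7, which is not analysed here, and 80 bases with the opposite-strand repair gene pms-2. The library kit did not mark strand, so that reads of these genes cannot be told apart. The gene pms-2 was lower as well, by -0.33, -0.34 and -0.37 across stages. At L2 its mean level was 23.4 CPM on OP50 and 10.9, 13.3 and 11.2 CPM on MYb71, MYb65 and Mix. At L3 it was 21.3 CPM on OP50 and 11.7, 11.8 and 11.5 CPM on these lawns. At L4 it was 33.2 CPM on OP50 and 38.3, 36.1 and 33.5 CPM. Over the lawns, pms-2 rose from a mean of 14.7 CPM at L2 to 62 CPM at Ad7, and nhr-101 was higher at L2 than at Ad7 on each lawn. The part of shared reads in these values was not tested.

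For nhr-137 and nhr-11, the larval OP50 libraries were also high. At L4, nhr-137 had 27.2, 17 and 7.05 CPM on OP50 and between 2.45 and 8.57 CPM on the other lawns, so that OP50 replicate 3 overlapped them. At L3, nhr-11 had 15.4, 25.7 and 13.8 CPM on OP50 and between 4.57 and 8.59 CPM elsewhere, and at Ad7 it had 9.94, 10 and 12.3 CPM on OP50 and between 8.61 and 13.8 CPM elsewhere. The changes of nhr-11 across stages were -0.64 ± 0.13, -0.51 ± 0.13 and -0.73 ± 0.14. Leaving out 1 replicate number ended the call of nhr-11 on each lawn (adjusted p up to 0.386 on MYb65) and that of nhr-137 on Mix (0.12 without replicate 1).

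The gene that was higher on all 3 lawns was nhr-8, a receptor of xenobiotic resistance and cholesterol metabolism that is related to daf-12. At L2, nhr-8 had 12.3, 12.1 and 11.5 CPM on OP50, 21.7, 18.4, 20.8 and 22.0 CPM on MYb71, 28.4 and 19.2 CPM on MYb65 and 20.2, 21.7 and 21 CPM on Mix. At Ad7 the OP50 libraries were at 4.82, 3.87 and 4.37 CPM and the others between 4.58 and 6.59 CPM. The groups did not overlap at L2, and the mean was above OP50 at all 6 stages on each lawn. The log2 change across stages was 0.51 ± 0.12 on MYb71, 0.55 ± 0.12 on MYb65 and 0.52 ± 0.12 on Mix (adjusted p = 0.0022, 0.00176 and 0.00438). Leaving out replicate 1 ended the call on MYb71 (0.0747) and on MYb65 (0.333), and leaving out replicate 2 that on Mix (0.149). The end of nhr-8 shares 47 exon bases with the opposite-strand gene F33D4.6, which was not called on any lawn.

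**Figure D5:**
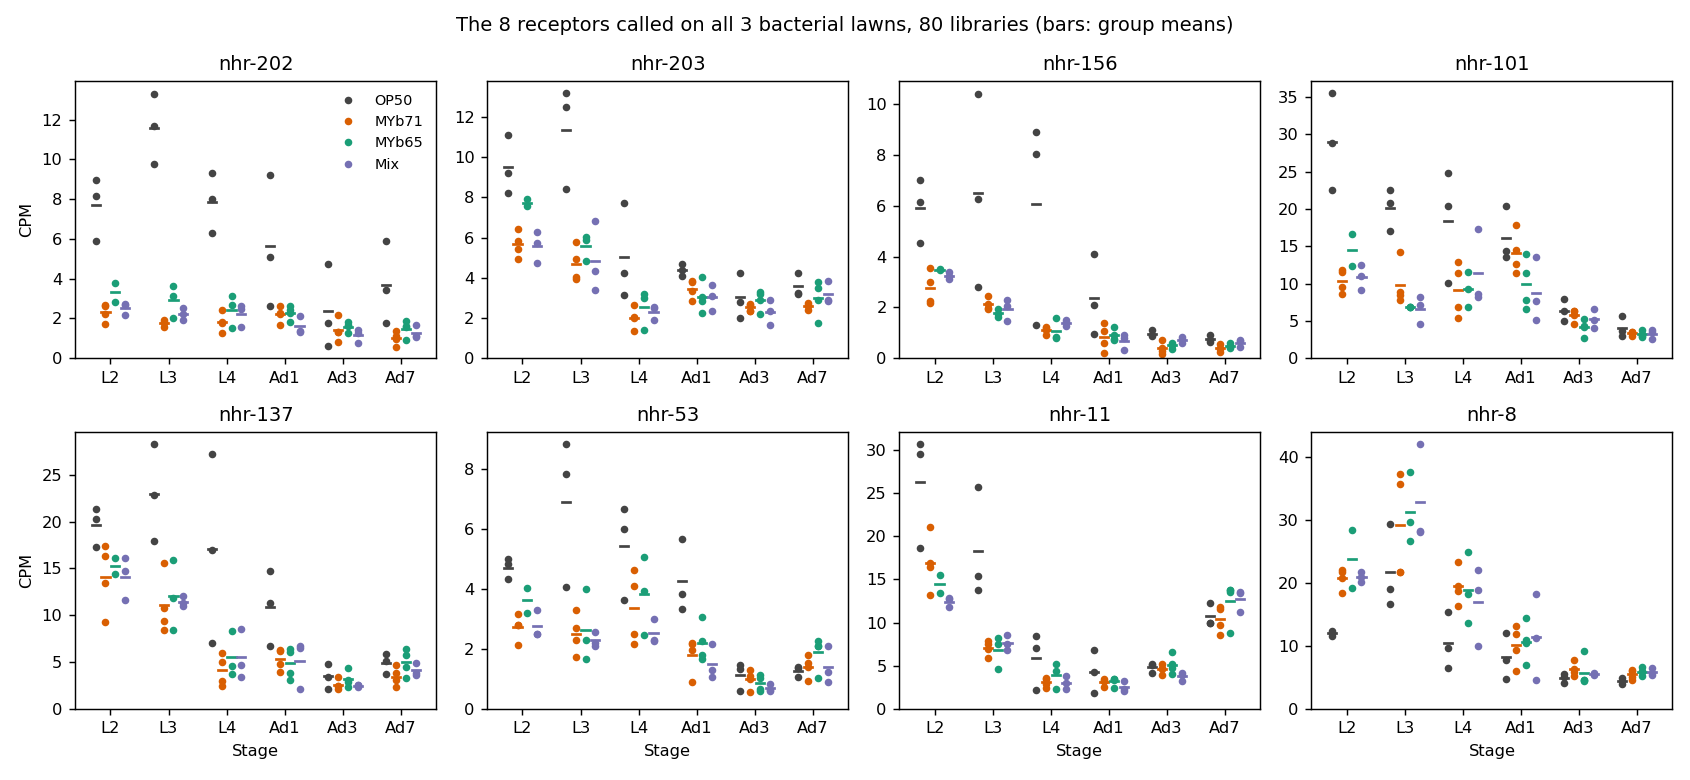
CPM of the 8 receptors called on all 3 lawns in 80 libraries (points) by stage, coloured by bacterium, with bars for group means. At L2 and L3, nhr-202 and nhr-101 are highest in the OP50 libraries without overlap, and nhr-8 is lowest in them at L2. At Ad3 and Ad7 the bacteria lie close together for most of the genes on this linear scale. Closeness in CPM is not a small log2 change: nhr-202 was at -1.90 ± 0.38 on MYb71 at Ad7.

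The other genes that were higher changed less evenly. The gene nhr-19 had 37, 48.2 and 43 CPM on OP50 at L2 and between 40.7 and 75.6 CPM on the other lawns, and its change across stages was 0.50 ± 0.14 on MYb71 and 0.53 ± 0.15 on Mix, both of which were lost without replicate 1 (adjusted p = 0.511 and 0.297) and without replicate 2 (0.321 and 0.169). The change of nhr-21 on MYb71, 0.71 ± 0.18, was lost without replicate 1 or without replicate 2 (0.33 and 0.364). The gene with the largest increase, nhr-155, with 1.65 ± 0.42 on MYb65, was scarce: at L3 it had 1.19, 0.44 and 1.18 CPM on OP50 and 1.55, 2.98 and 4.31 CPM on MYb65, and at Ad1 it was at 0 in most libraries, and its call was lost without replicate 2 (0.264). The changes of nhr-55, nhr-79 and nhr-184 on MYb71 were 0.34 ± 0.09, 0.33 ± 0.10 and 0.44 ± 0.12.

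At single stages, most calls fell at L2 and L3 when each stage was fitted alone. Over 18 comparisons of a lawn with OP50 at 1 stage, 28 calls were made on 11 members, 23 of them lower, with 13 calls at L2 and 12 at L3. With 1 model of 24 groups for all stages this order changed: MYb71, MYb65 and Mix had 3, 0 and 3 calls at L2, 10, 6 and 7 at L3 and 5, 3 and 4 at L4. At L2, 5 of 222 tested members were called on MYb71 (1 higher and 4 lower, 2.25%, against 1.55% of all genes, 0.63% higher and 0.918% lower). On MYb65, 1 was higher and 1 lower (0.901%, against 0.757%, 0.349% higher and 0.409% lower), and on Mix 1 was higher and 5 lower (2.7%, against 0.784%, 0.194% higher and 0.59% lower). At L3, 4 of 200 were lower on MYb71 (2%, against 0.758% of all genes, 0.146% higher and 0.612% lower). On MYb65, 1 was higher and 4 lower (2.5%, against 0.973%, 0.236% higher and 0.737% lower), and on Mix 3 were lower (1.5%, against 0.674%, 0.132% higher and 0.542% lower). The gene nhr-202 made up 7 of the 28 calls, with the largest change of -2.57 ± 0.18 on MYb71 at L3 (adjusted p = 6.01e-05). With all 82 libraries, 0 calls were made at L2 and 1 at L3. Leaving out OP50 L2 replicate 4 raised the L2 count on MYb71 to 11, and leaving out MYb65 L2 replicate 1, which leaves 1 library that is assumed to vary like the others, took that on MYb65 to 0. Among genes not called across stages, nhr-260 was lower at L2 on all 3 lawns, with 5.6, 3.98 and 5.0 CPM on OP50 and between 1.49 and 2.21 CPM in the other 9 libraries, without overlap.

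In the fits of the later stages alone, few calls were made. At L4, nhr-202 was lower on MYb71 (1 of 183 members, against 0.145% of all genes, 0.0315% higher and 0.114% lower). On MYb65 and Mix no member was called, against 0.0694% of all genes (0.0252% higher and 0.0442% lower) and 0.0757% (0.0189% higher and 0.0568% lower) (7 and 9 members at an unadjusted p under 0.05, and 2 and 1 calls by DESeq2). At Ad1, no member was called on any lawn, where at most 0.00644% of all genes were (7, 9 and 6 members at an unadjusted p under 0.05, and 0, 0 and 1 calls by DESeq2), but 1 model of 24 groups called 5 members on MYb71, 0 on MYb65 and 2 on Mix. At Ad3, nhr-206 was higher on Mix, by 1.61 ± 0.29, with 1.69, 1.71 and 1.7 CPM against 0.616, 0.44 and 0.64 CPM on OP50 (1 of 172 members, against 0.246% of all genes, 0.19% higher and 0.0563% lower). No member was called at Ad3 on MYb71 and MYb65, against 0.401% of all genes (0.295% higher and 0.105% lower) and 0.394% (0.309% higher and 0.0844% lower) (14 and 24 at an unadjusted p under 0.05, 0 and 2 by DESeq2). At Ad7, nhr-202 was lower on MYb71 (1 of 179, against 0.669% of all genes, 0.242% higher and 0.427% lower), and no member was called on MYb65 and Mix, against 0.733% of all genes (0.363% higher and 0.37% lower) and 0.512% (0.242% higher and 0.27% lower) (20 and 16 at an unadjusted p under 0.05, 1 and 2 by DESeq2). Each call at L4, Ad3 and Ad7 was lost when certain single libraries were left out, OP50 replicate 2 of that stage among them, and leaving out OP50 Ad1 replicate 3 gave 2 calls on MYb71 at Ad1.

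Whether the change on a lawn differed between larvae and adults was tested directly. On MYb71, nhr-101 was called (1 of 229 members, against 0.501% of all genes, 0.0599% higher and 0.441% lower), with a difference of -0.96 ± 0.24 between the mean log2 change in L2, L3 and L4 and that in Ad1, Ad3 and Ad7 (adjusted p = 0.0403), and the call was lost under 7 of 10 alternatives, with an adjusted p of up to 0.804. On MYb65 and Mix no member was called, where 0.392% of all genes (0.0653% higher and 0.327% lower) and 0.163% (0.0272% higher and 0.136% lower) were (28 and 19 members at an unadjusted p under 0.05, 1 and 0 by DESeq2). For the other genes, a difference between larvae and adults was not shown.

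No member separated the native bacteria from each other across stages. Between MYb71 and MYb65, no member was called by edgeR or DESeq2, against 0.136% of all genes (0.0381% higher and 0.098% lower), and 7 members had an unadjusted p under 0.05 (lowest adjusted p = 0.409). Between Mix and the mean of the single isolates, no member was called by either tool, against 0.0163% of all genes, with 6 members at an unadjusted p under 0.05. For nhr-202, the change on MYb71 was -1.78 ± 0.15 and that on MYb65 -1.39 ± 0.16.

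The receptors with known roles in fat metabolism were not among those called on the lawns. None of the 6 passed on any lawn across stages, and the log2 change of nhr-49 was -0.03 ± 0.06 on MYb71, 0.00 ± 0.06 on MYb65 and 0.02 ± 0.06 on Mix, with adjusted p values of 0.887, 0.998 and 0.95. In the conserved list and in the stress list nhr-8 was the only gene called. None of the 5 nuclear receptors with other names, of the 4 coregulators and of the 5 moulting genes was called across stages. Genes that NHR-49 and NHR-80 are known to control did move in part: the desaturase gene fat-5 was lower on MYb71 and MYb65, the desaturase gene fat-7 on MYb71 and Mix, and the monooxygenase gene fmo-2 was higher on MYb71, while fat-6, acs-2 and icl-1 were not called. The mean level of fat-7 at L3 was 48.9 CPM on OP50 and 3.27 CPM on MYb71.

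Of the receptors that were left out of the family, nhr-68 and nhr-114 were lower on each lawn and nhr-10 was not called. The mean level of nhr-68 at L2 was 133 CPM on OP50 and 6.51 CPM on MYb71, and that of nhr-114 at L3 was 183 and 18.8 CPM. The gene nhr-68 follows nhr-101 on chromosome V, on the same strand. Few cell type markers were called across stages on the lawns: of the intestine list (elt-2, ges-1, act-5 and ifb-2), ges-1 was higher on MYb71 and MYb65, by 0.37 ± 0.09 and 0.36 ± 0.10, gsp-3 of the sperm list was higher on MYb65, and no marker of muscle, neuron, epidermis, germline, yolk or embryo was called. At single stages some means differed. At L4, the summed sperm markers averaged 295 CPM on OP50 (243 to 375). They averaged 188 (116 to 264), 215 (174 to 251) and 214 CPM (207 to 218) on MYb71, MYb65 and Mix. The germline markers at L4 averaged 2070 CPM on OP50 (1130 to 3440) and 3260, 3000 and 2540 CPM on these lawns, with overlap. The part of these cell types in the changes of the receptors was not tested.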

How the data were processed

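Whole-worm RNA-seq libraries made with a kit that does not mark strand were deposited as 1 table of read counts per gene. According to the sources, the authors used Trimmomatic for trimming, STAR 2.5.3a for alignment to the WS235 genome, and HTSeq for the gene table. These deposited counts were not normalized. Members were taken by symbol from the WBcel235 annotation, and coordinates and exon lengths are from it. Members and gene lists were chosen with earlier results of these data known.

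Counts were tested with edgeR 4.0.16 (quasi-likelihood F-test with robust dispersion, TMM scaling, minimum count 10 and total 15), with Benjamini-Hochberg adjustment over all genes tested and a threshold of 0.05. The model across stages had bacterium and stage as terms, the models at single stages had bacterium only, and the steps between stages and the difference between larvae and adults came from a model of 24 groups. An SE is the log2 change divided by the square root of F. CPM values use TMM factors over all 82 libraries. Library totals ran from 10513060 to 74552875 counts, so low levels are least precise in the shallow libraries. P-values measure the spread between the deposited replicates, which may be technical in part. No pair of libraries of a group looked like 1 library deposited in duplicate (lowest chi-square per gene 8.453 over 103 pairs).

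Genes were named by a fixed rule: the role lists, up to 10 called members per direction and lawn across stages, up to 3 per single stage, 4 per direction and step with a mean log2 CPM of at least 2, the 5 highest levels per kb, and neighbours of named genes in the gene order. Named after their values were seen were nhr-104 and the genes that overlap a called member. Alternatives were all 82 libraries, 71 libraries without the third replicate in groups of 4, RLE scaling, no count filter, a block for the replicate number, DESeq2 1.42.0, 1 model of 24 groups for single stages, OP50 libraries alone for the steps, and leaving out replicates. The edgeR steps were tested on simulated counts. No sequences are shown. The study repeated the exposure for each replicate with all lawns in parallel, but no source ties a replicate number to a repeat. Same-numbered libraries deviated together in 5 of 14 comparisons with OP50, so the block is given as an alternative. Some libraries with different numbers also deviated together, and the block does not join them.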

Additional observations from a re-analysis of the deposited data

Results flagged for a closer look

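Of 386 groups of 4 libraries of named receptors, 23 had a highest or lowest library whose gap to the nearest other, as a share of the group's range, exceeded the critical value of Dixon's test (chance gives about 1 in 20). Several fell in the same libraries. In MYb71 L2 replicate 4, nhr-25 was at 18.9 CPM and nhr-85 at 5.73 CPM, against at least 34.8 and 14.6 CPM in the other 3 libraries. In MYb71 Ad1 replicate 4, nhr-53 was at 0.902, nhr-98 at 0.833 and nhr-25 at 6.73 CPM, all low. In MYb71 L4 replicate 2, nhr-206 was at 3.77, nhr-106 at 6.81 and nhr-99 at 9.63 CPM, all high, while nhr-7 in MYb71 L4 replicate 4 was low at 4.06 CPM. In MYb65 Ad3 replicate 1, nhr-8 at 9.17 and nhr-225 at 1.17 CPM were high and nhr-106 at 2.57 CPM was low. In MYb65 Ad7 replicate 4, nhr-53 at 1.04 and nhr-11 at 8.75 CPM were low, as were nhr-11 at 2.42 and nhr-55 at 7.04 CPM in MYb65 Ad1 replicate 2. The remaining libraries had 1 such value each, all high: nhr-101 at 14.2 CPM in MYb71 L3 replicate 4, nhr-157 at 9.38 CPM in MYb71 L2 replicate 1, nhr-7 at 2.75 CPM in MYb71 Ad3 replicate 2, nhr-41 at 8.88 CPM in MYb71 Ad3 replicate 1, nhr-120 at 4.88 CPM in MYb71 Ad3 replicate 4, nhr-85 at 2.18 CPM in MYb65 Ad1 replicate 4 and nhr-50 at 3.6 CPM in MYb65 Ad3 replicate 3.

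The change of nhr-101 on MYb71 differed between larvae and adults by -0.96 on the log2 scale in the test of the difference itself (edgeR, adjusted p = 0.0403). This was 0.437% of the members, against 0.501% of all genes. The call was lost under most alternatives, as given above, and 63.4% of the exon bases of nhr-101 overlap H12C20.7.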

How the results depend on the processing

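Counts are of members called. With all 82 libraries, the comparisons across stages called 31 (MYb71), 24 (MYb65) and 26 (Mix), L2 called 0, 0 and 0, L3 called 1, 0 and 0, larvae against adults 3, 3 and 2, and Ad3 to Ad7 27. With DESeq2, MYb65 across stages had 17, L2 14, 7 and 10, L3 12, 11 and 15, L4 3, 2 and 1, Mix at Ad1 1, MYb65 at Ad3 2, MYb65 and Mix at Ad7 1 and 2, and larvae against adults 2 on MYb71 and 1 on MYb65. With 1 model of 24 groups, L2 had 3, 0 and 3, L3 10 on MYb71 and 7 on Mix, L4 5, 3 and 4, Ad1 5 on MYb71 and 2 on Mix, and Mix at Ad3 0. On OP50 libraries only, the steps called 67 (L2 to L3), 50 (L4 to Ad1), 43 (Ad1 to Ad3) and 0 (Ad3 to Ad7). Without the third library in groups of 4, L3 had 2 on MYb71 and 2 on MYb65, and MYb71 at L4, Mix at Ad3, MYb71 at Ad7 and MYb71 in larvae against adults had 0. Without a filter on low counts, Mix at Ad3 had 0, MYb65 and Mix at Ad7 1 and 1, and larvae against adults on MYb71 0, as with RLE scaling. The causes were not tested.

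Leaving out a replicate number gave 8 to 15 (MYb71), 5 to 21 (MYb65) and 7 to 14 (Mix) across stages, 0 to 0 between the native bacteria, 116 to 132, 150 to 184, 72 to 110, 89 to 143 and 17 to 39 in the 5 steps, and 0 to 2, 0 to 1 and 0 to 0 for larvae against adults. Leaving out 1 library gave, on MYb71, MYb65 and Mix, 3 to 11, 0 to 6 and 3 to 6 at L2, 1 to 6, 1 to 7 and 1 to 5 at L3, 0 to 2, 0 to 1 and 0 to 1 at L4, Ad1 and Ad7, and 0 to 0, 0 to 0 and 0 to 1 at Ad3.

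Over all comparisons, an equal replicate number was not a reliable mark of a pair. Of 105 pairs with the same number, 46 correlated above 0.1 (lowest -0.811, median 0.0332, against -0.0241 for other pairs). Some pairs with different numbers correlated more. From L2 to Ad7, Mix replicate 1 correlated with OP50 replicate 2 at 0.468, 0.729, 0.798, 0.754, 0.0557 and 0.138. Its values with OP50 replicate 1 were 0.272, -0.692, -0.543, 0.483, -0.008 and -0.0508. The block joins equal numbers only, so a repeat shared under different numbers was not modelled. In 5 of 14 comparisons with OP50 at 1 stage that had at least 3 pairs with the same number, every such pair was above 0.1. These were MYb71 at L2, L3 and Ad1, and MYb65 at L4 and Ad7. There the block gave 6, 3 and 0 calls on MYb71 and 0 and 0 on MYb65, in place of 5, 4, 0, 0 and 0. With a replicate block, the counts across stages were 18, 12 and 13, MYb65 at L3 had 2, MYb71 at L4 and Ad7 and Mix at Ad3 had 0, and larvae against adults on MYb65 had 1.

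For the named genes, 105 calls were recomputed in 1312 fits. No direction reversed, 1045 values kept their call and 267 lost it, and 38 calls were never lost. Scarce receptors limit the precision: 54 members stayed under 1 CPM in every library.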
